A study of Arabidopsis thaliana with 8 samples.

Results

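The tiles described here are those of plates TC00 to TC13 of a tiling array of chromosome 4 of Arabidopsis thaliana, on which DNA recovered by chromatin immunoprecipitation (ChIP) for H3K4me2, dimethylation of histone H3 on its lysine 4, was compared with input DNA. A tile is a stretch of the chromosome represented on the array, and its name gives the set of plates (TC), the plate number and the well of a 96-well plate. The plates were chosen by number, as the stretch of the TC set without a block of low plates, so their level was known when they were chosen and is described here with no test. They hold 1282 named wells, of which 1266 have values in all 4 replicates, out of 21285 such tiles on the array. The other 16 wells are blank in every replicate.

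H3K4me2 is a mark of the histone H3 tail. In plants it lies mostly over genes, is scarce over the silent, repeat-rich chromatin around centromeres, and tends to cover a gene or part of it rather than a point. ChIP pulls down DNA bound to marked nucleosomes, and the ratio of that DNA to input shows, tile by tile, where along a chromosome the mark is dense or sparse. The names used here give neither position nor gene, so the tiles below are named by plate and well, and no sequence is shown.

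The samples form 1 group: whole seedlings of the reference accession Col-0, 10 days old, grown in liquid culture with no treatment. There are 4 replicates, each a dye swap of 2 arrays, and both arrays of a swap hold the same deposited log ratio in all 21800 rows, so each replicate gives 1 value per tile and n = 4. The immunoprecipitated chromatin of replicates 2, 3 and 4 carries the same seedling batch label, and nothing says that the 4 came from separate plants, so SDs between replicates may be technical. A seedling holds many cell types, and a change in the share of cells that carry the mark cannot be told apart from a change in its density per cell. The ratio is taken as log2, and whether it is immunoprecipitated over input DNA or the reverse is not stated, so high and low refer to the deposited sign. Every value is a difference on that scale from the median tile of the array, which is set to 0 in each replicate.

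The stretch as a whole lay above the median tile of the array. Its median tile was at 0.42, 0.36, 0.55 and 0.36 in replicates 1 to 4, a mean of 0.42 ± 0.09 (SD, n = 4), but at -0.17 with the values as deposited and at -0.42 when each replicate was centred on its mode. These other centrings move all tiles of a replicate by the same amount, by -0.60 and -0.85 on average, so they leave the order of tiles and plates within a replicate as it is. Of the 1266 tiles, 719 (56.8%) were above 0 in all 4 replicates, against 43% of the tiles of the whole array. Another 356 (28.1%) were below 0 in all 4, against 43.2%, and 191 had mixed signs. With the values as deposited the counts were 315 above and 553 below, and centred on the mode they were 273 and 698. The choice of plates used this level, so nothing is read from these shares. At least 1 above 0, a factor of 2, in every replicate were 206 tiles (16.3%), against 14.9% on the array, and at least 1 below were 80 (6.32%), against 21.1%.

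The plates up to TC12 formed a lower and then a higher stretch. As means over replicates, plates TC00 to TC04 had medians from -0.47 to 0.16, and plates TC05 to TC12 from 0.32 to 0.91. In replicate 1 alone, TC01 at 0.31 was above TC08 at 0.28, and in the other replicates no plates of these stretches crossed. TC13, the last plate, was back at -0.07. TC05 was the highest, at 0.93, 0.88, 1.04 and 0.80 in replicates 1 to 4, with 80 of its 96 tiles above 0 in every replicate. TC03 was the lowest, at -0.27, -0.72, -0.42 and -0.49, with 25 of its 92 tiles above 0 and 57 below 0 in every replicate. The values of TC03 and TC05 did not overlap, and TC03 was the lower in each replicate. The pair was picked from these values as the lowest and highest plate, so this separation is a description and no test. TC00, TC01, TC02, TC04 and TC13 had medians within 0.16 of 0, and in TC01, TC02, TC04 and TC13 the sign of the median differed between replicates.

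**Figure D1:**
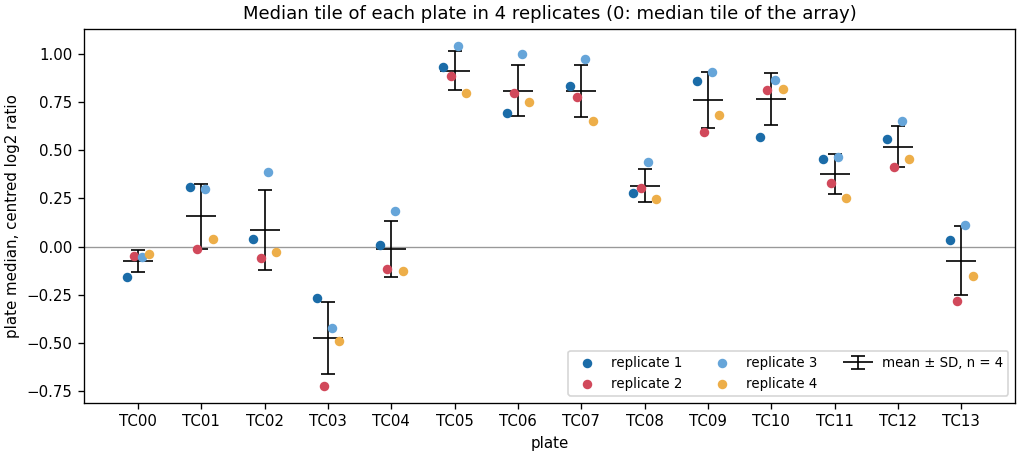
Median centred log2 ratio of the tiles of each plate (vertical axis) for plates TC00 to TC13 (horizontal axis). Points are the 4 replicates and the bar is their mean ± SD. TC05 stands highest at a mean of 0.91, TC03 lowest at -0.47, and plates TC05 to TC12 all lie higher than TC00 to TC04 in their means.

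Taken over their tiles, plates TC00 to TC04 had a median of -0.04, -0.21, 0.03 and -0.14 in replicates 1 to 4 over 473 tiles. Plates TC05 to TC12 had 0.65, 0.64, 0.82 and 0.62 over 759 tiles, higher in each replicate and with no overlap. In the lower stretch 38.9% of tiles were above 0 and 44.2% below 0 in all replicates. In the higher stretch the shares were 68.9% and 17.4%. The split at TC05 was seen in the same values, so it is a description. The rise did not fall on the plate border. Plate row TC04E, at 1.17 ± 0.14 (SD over replicates, n = 4; mean of its 12 tiles), was no lower than any plate row of TC05, while TC04F, TC04G and TC04H lay at 0.21, -0.51 and 0.13 and TC05A at 0.44. Rows TC05B, TC05C and TC05D followed at 1.14, 1.01 and 1.07.

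**Figure D2:**
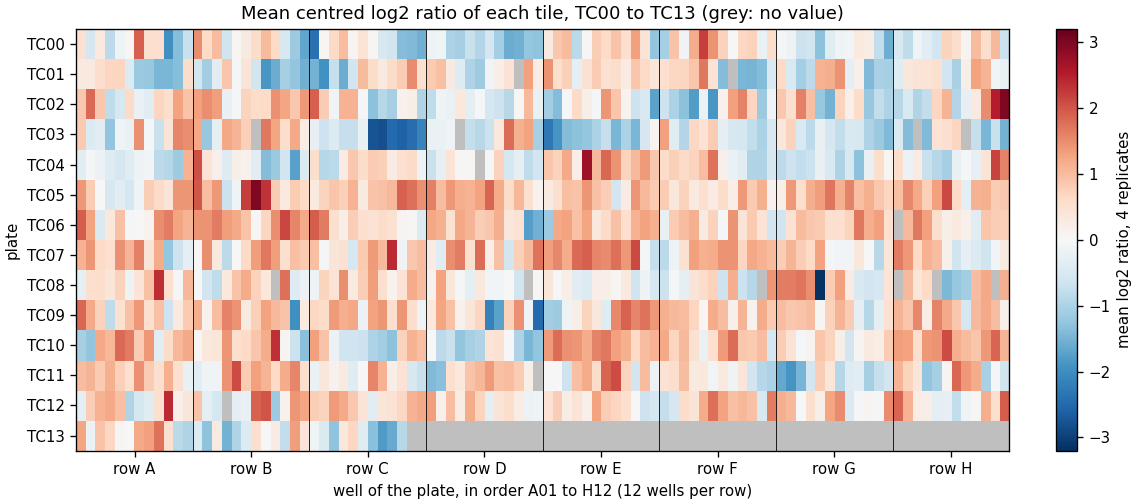
Mean centred log2 ratio over 4 replicates (colour) of every tile of plates TC00 to TC13 (vertical axis) by well in the order A01 to H12 (horizontal axis). Red is higher and blue lower than the median tile of the array, and grey wells have no value here. With this centring plates TC05 to TC12 are mostly red, TC00 to TC04 mix red and blue stretches, and the darkest blue stretch, TC03C07 to TC03C12, is 6 wells long.

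At the level of plate rows, 12 wells each, the highest and lowest stretches lay on few plates. Of 107 plate rows, 10 had a mean above 1 and 2 a mean below -1. Of those above 1, 5 were on TC05, 2 on TC10 and 1 each on TC04, TC06 and TC07. The highest was TC10E, at 1.31 ± 0.13 and no lower than 1.24 in any replicate, with all 12 tiles above 0 in every replicate. TC10H, at 1.29 ± 0.19, was the other row in which every tile did so. The lowest rows were both on TC03. TC03C was at -1.67, -1.42, -1.76 and -1.25, and TC03E at -1.07, -1.28, -1.22 and -1.18. No plate row had all of its tiles below 0 in every replicate.

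The 5 highest tiles lay on 4 plates. TC02H12 had 2.76, 3.02, 2.89 and 3.29 in replicates 1 to 4, a mean of 2.99 ± 0.23, or 7.94-fold from the median tile, and ranked 15th among all tiles of the array. It closed a rise over the last wells of its plate: TC02H09 was at 0.29, TC02H10 at 1.51 and TC02H11 at 2.51, and the first well of the next plate, TC03A01, was at 0.83. TC05B07 had 2.94, 3.18, 2.77 and 3.04, with its neighbours TC05B06 and TC05B08 at 2.22 and 2.30, a peak of 3 wells. TC04E05, at 2.71, 2.60, 2.89 and 2.64, rose from 0.20 in the well before it and was followed by 1.05. TC12A10, at 1.97, 2.50, 2.53 and 2.59, stood far above the wells on either side, at 0.50 and 0.17. The well before it, TC12A09, was also above 0 in every replicate. The lowest value of any of these tiles in any replicate was 1.97, at TC12A10. These tiles came both as peaks over several wells and as a well far above those beside it.

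The tail on the high side was about as full as that of the array and the tail on the low side was thinner. The mean was above 2 in 20 members (1.58%) against 1.97% of all tiles, and above 3 in 0 against 14 tiles of the array. It was below -2 in 11 members (0.869%) against 12.6% of all tiles, and below -3 in 1 (0.0790%) against 3.12%. The array includes whole plates of low level, which the choice of these plates left out.

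Of the 11 members below -2, 6 lay side by side. These were TC03C07 to TC03C12, with means between -2.80 and -2.12. TC03C08 had -3.46, -2.21, -3.33 and -2.22 in replicates 1 to 4, and TC03C07 had -3.003, -2.415, -3.327 and -2.323. Replicates 1 and 3 were lower than 2 and 4 in each well of this stretch and the difference was smallest at its end, where TC03C12 had -2.10, -2.08, -2.24 and -2.06. The edge was sharp: TC03C06, the well before, had a mean of -0.24. TC03E01, at -2.29 ± 0.19, lay in another low stretch of the same plate.

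The lowest member, TC08G05, was a lone well. It had -3.17, -2.72, -3.25 and -3.48 in replicates 1 to 4, a mean of -3.15 ± 0.32 or 8.91-fold from the median tile in the low direction, and ranked 464th from the low end of the array. Its neighbours were high. The 4 wells before it, TC08G01 to TC08G04, had means of 1.64, 1.64, 1.71 and 1.48, and TC08G06 and TC08G07 after it had 0.82 and 1.32. The drop from TC08G04 to TC08G05 was -4.64 ± 0.34 and the return to TC08G06 was 3.97 ± 0.42. These were the largest steps between adjacent wells of these plates, and both went the same way in all 4 replicates.

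The next 3 steps by size also led from a high well down to a low one. TC12B09, at -1.16 ± 0.20, followed TC12B08 at 2.001, a step of -3.16 ± 0.26. TC09B11, at -1.95 ± 0.11, lay between TC09B10 at 0.92 and TC09B12 at 0.32. TC09D07 and TC09D08, at -2.17 and -1.72, followed TC09D06 at 0.68 and were followed by TC09D09 at 0.73. Steps of more than 2 of other kinds included the rise to TC04E05, the fall after TC12A10 and the fall from TC03C06 to TC03C07, all given above. In TC09D12, at -2.50, -2.40, -2.54 and -2.49, the replicates lay within a range far smaller than its distance from TC09D11 at -0.12. Over all 1236 adjacent pairs, 250 (20.2%) differed by more than 1 in their means and 39 (3.16%) by more than 2. The median absolute step within a replicate was 0.52 ± 0.01. The median SD between the replicates of a tile was 0.207, an unlike measure, since a step carries the spread of both its tiles.

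**Figure D3:**
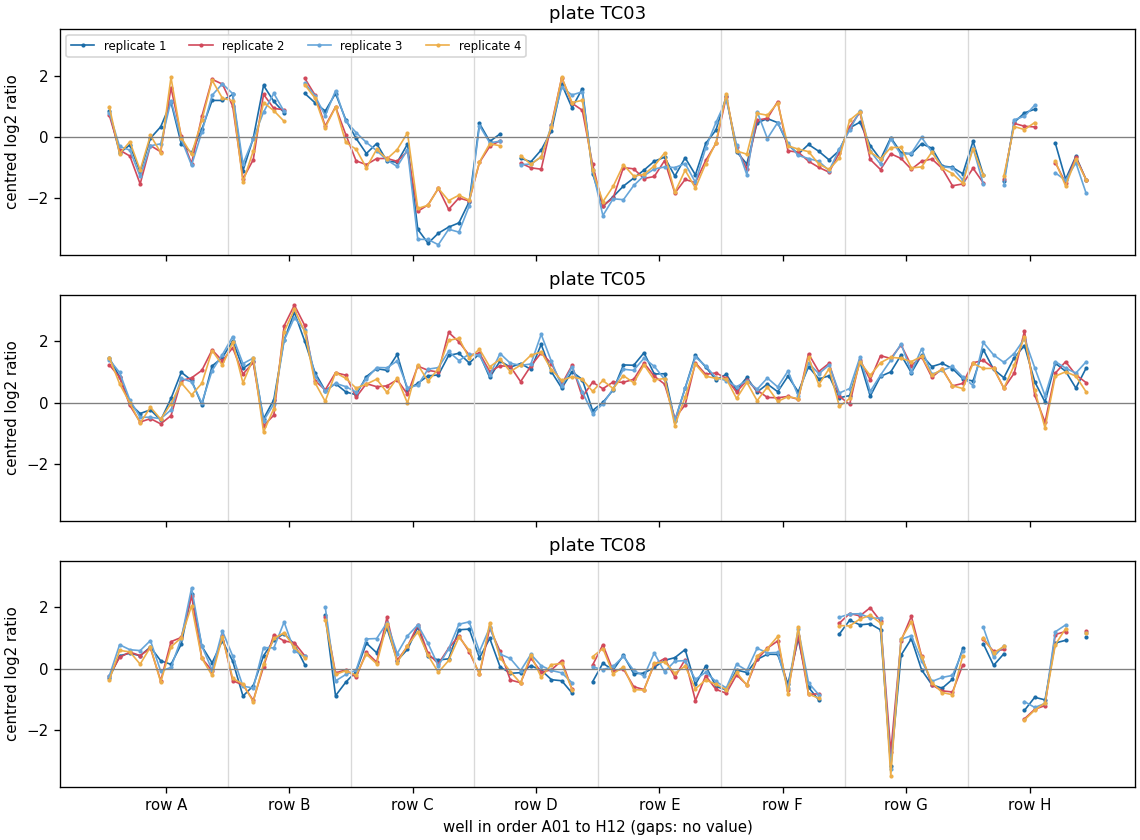
Centred log2 ratio (vertical axis) of every tile of plates TC03, TC05 and TC08 in the order A01 to H12 (horizontal axis), with a line for each of the 4 replicates and gaps at blank wells. The lines follow the same main peaks and dips, but over TC03C07 to TC03C11 replicates 1 and 3 are lower than 2 and 4. They also split at other wells, in the same direction at TC03F06 and TC05G03 and in the other at TC03E11. TC05 peaks at TC05B07, and TC08 has its narrow minimum at TC08G05.

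High and low tiles lay in runs along the wells. A run is counted here as consecutive wells, along the plate rows and on to the next plate, whose tiles are above 0 (high) or below 0 (low) in every replicate. There were 178 high runs with a mean length of 4.04 wells and 136 low runs with a mean of 2.62. Single wells made up 47 of the high and 60 of the low runs. Runs of at least 5 wells held 60.8% of the high tiles and 40.2% of the low tiles. Over all tiles of the array, low plates included, the mean lengths were 3.95 and 4.04 wells and the shares 62.2% and 63.7%. The high runs here were thus close to those of the array, but longer on average than those of the TA stretches given below. A smaller share of the tiles of those stretches was above 0, 41.2% (TA64 to TA99) and 46.2% (TA01 to TA20) against 56.8% here. The lengths depend on the rule: with values as deposited the means were 2.06 for high and 3.11 for low runs, with mode centring 1.90 and 3.64, and when tiles had to be at least 1 from 0 they were 1.76 and 1.63. The order of the means, high over low, thus flipped under both other centrings.

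**Figure D4:**
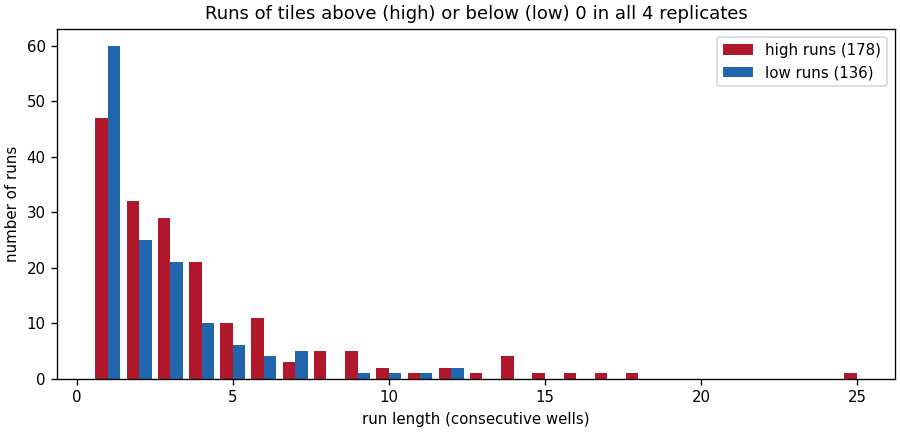
Number of runs (vertical axis) by length in wells (horizontal axis) for tiles above 0 (high, 178 runs) and below 0 (low, 136 runs) in all 4 replicates, with each replicate centred on the median tile of the array. The longest high run holds 25 wells and the longest low run 12. Single wells are 60 of the 136 low runs and 47 of the 178 high runs.

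The longest high run passed a plate border. It held 25 wells, from TC10G10 to TC11A10, with means of 0.92, 1.08, 1.15 and 1.02 in replicates 1 to 4 and tiles between 0.25 and 2.08, the highest being TC10H06. The next were TC05G02 to TC05H07 with 18 wells at a mean of 1.17, TC05C07 to TC05D11 with 17 at 1.22, TC10E01 to TC10F04 with 16 at 1.19, and TC07F03 to TC07G05 with 15 at 1.04. In these 5 runs the SD of the run mean over replicates was 0.12 or less. The rule of sign in every replicate is strict: TC05C06, just before the third of these runs, had 0.42, 0.28, 0.50 and -0.01 and ended the run there, and without replicate 4 the run was 30 wells long.

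The longest low runs lay on TC00 to TC04. A pair of 12 wells each were on TC03. TC03D12 to TC03E11 had means of -1.19, -1.33, -1.35 and -1.25 in replicates 1 to 4, with its lowest tile, TC03E01, at -2.29. TC03G03 to TC03H02 had -0.60, -1.02, -0.69 and -0.81 and ended at the blank well TC03H03, beyond which TC03H04 was at -1.40. TC01B07 to TC01C05 followed with 11 wells at -1.16, -1.40, -1.39 and -1.25, then TC00D03 to TC00D12 with 10 wells at a mean of -1.10 and TC04F08 to TC04G04 with 9 at -0.67. Of the 10 low runs of at least 7 wells, 8 began on TC00 to TC04, and of the 28 high runs of that length 5 did. TC05 to TC12 had 70 low runs with a mean length of 1.89 wells and a longest of 7.

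The low runs ended in different ways. TC01B06, before the run on TC01, was at 0.42 and TC01C06, after it, at 1.02, while the first and last tiles of the run, TC01B07 and TC01C05, were at -0.58 and -0.62. Inside it TC01C02 reached -1.93 and TC01B08 -1.87. TC03D11, before the run that opens on TC03D12, was at 1.28, and TC03E12 after it was at 0.08. Other runs passed into wells that were low on average but of mixed sign: TC00D02, before the run on TC00, was at -0.14 and TC04G05, after that on TC04, at -0.25.

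Tiles in neighbouring wells were alike over a short distance. Along the plate rows the correlation across pairs of tiles 1 well apart was 0.57, 0.60, 0.59 and 0.57 in replicates 1 to 4 over 1236 pairs. It was 0.33 ± 0.01 at 2 wells and 0.20 ± 0.01 at 3, was again 0.20 at 6 wells, and was lower further on, with 0.16 at 8, 0.12 at 12 and 0.08 at 24. When each tile was taken relative to the median of its plate, the values were 0.51, 0.23 and 0.08 at 1, 2 and 3 wells and -0.02 at 12. At 96 wells, the same well of the next plate, the correlation was 0.04. All pairs of a replicate share its arrays, and a tile enters several pairs, so the correlations are a description without a test.

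**Figure D5:**
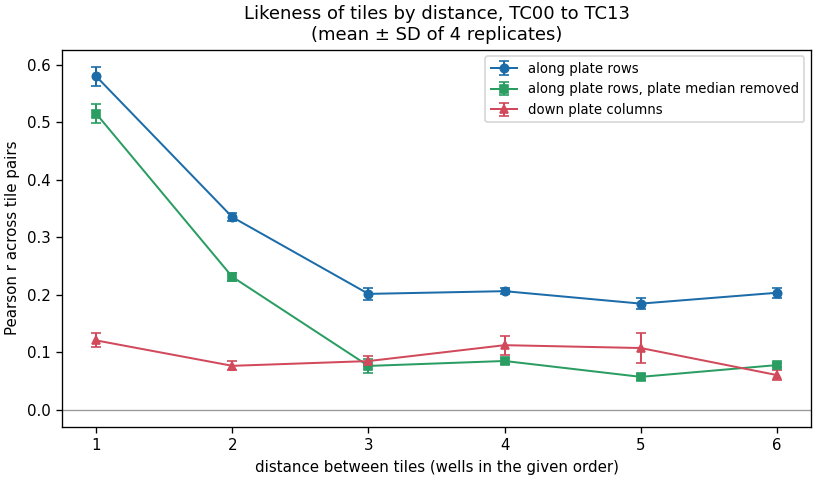
Pearson correlation across pairs of tiles of plates TC00 to TC13 (vertical axis) by their distance in wells (horizontal axis), as the mean ± SD of 4 replicates. Along plate rows it falls from 0.58 at 1 well to 0.20 at 3 wells, and with plate medians removed from 0.51 to 0.08. Down plate columns it is 0.12 at 1 well.

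The order along plate rows held at the ends of rows and plates. Pairs that pass from the last well of a row to the first of the next had a correlation of 0.63 ± 0.02 over 90 pairs, and pairs within a row 0.58 ± 0.02 over 1146 pairs. The 13 pairs that pass from a plate to the next had 0.58 ± 0.08, with means that differed by 0.10 at TC10H12 and TC11A01 and by 2.16 at TC02H12 and TC03A01. Tiles 1 row apart in the same column had 0.12 ± 0.01 over 1088 pairs. The likeness of neighbours differed between plates, from 0.25 ± 0.04 on TC08 and 0.30 ± 0.11 on TC12 to 0.62 ± 0.04 on TC01 and 0.64 ± 0.06 on TC03. Plates TC00 to TC04 had 0.60 ± 0.02 together, and TC05 to TC12 had 0.47 ± 0.02, but the plates of these stretches overlapped: TC10 and TC11, both at 0.59, were above TC00 at 0.51 and TC02 at 0.55.

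The position of a well in its plate went with differences in level, which were wider by row than by column. By plate row letter the medians ran from 0.17 ± 0.07 (row G) to 0.64 ± 0.09 (row E). By column they ran from 0.22 ± 0.14 (column 12) and 0.31 ± 0.07 (column 11) to 0.48 ± 0.11 (column 2), and columns 1 to 10 all lay between 0.41 and 0.48. The part of well position in the results above was not tested.

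Set beside plates TA64 to TA99 and TA01 to TA20, these plates varied less from tile to tile. Medians of single plates are not given for the TA stretches, so low plates within them are not excluded. The SD over tiles was 0.917, 0.989, 0.995 and 0.959 in replicates 1 to 4. It was 1.13, 1.22, 1.21 and 1.19 on plates TA64 to TA99 and 1.32, 1.43, 1.40 and 1.45 on TA01 to TA20, higher in each replicate and with no overlap in either case. The lower quartile was -0.39 ± 0.10 here, -0.76 ± 0.04 on TA64 to TA99 and -0.81 ± 0.03 on TA01 to TA20, whereas the upper quartiles were closer, at 1.04 ± 0.09, 0.89 ± 0.11 and 0.95 ± 0.07. The correlation of neighbours was 0.58 ± 0.02 here, 0.62 ± 0.01 on TA64 to TA99 and 0.569 ± 0.002 on TA01 to TA20. At 3 wells it was 0.20 ± 0.01 here, 0.30 ± 0.02 and 0.26 ± 0.01. The low runs had a mean length of 2.62 wells here, 3.08 on TA64 to TA99 and 2.96 on TA01 to TA20, and the longest held 12, 24 and 18 wells. The high runs had mean lengths of 4.04, 3.26 and 3.29 wells in the same order. Runs of at least 5 wells held 60.8%, 53.5% and 51.3% of the high tiles. In the same order, 56.8%, 41.2% and 46.2% of tiles were above 0 in all replicates, and 28.1%, 40.7% and 37.5% below. The run lengths were not adjusted for these shares, which go with the level by which the plates were chosen. A difference in runs apart from level was not tested. Plates TC00 to TC13 were picked for the lack of low plates, so no test of the differences is given.

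The TC set changes its level between the last plate here and the next one used, TC17. TC13 lists 34 wells, TC13A01 to TC13C10, with a median of 0.03, -0.28, 0.11 and -0.15 in replicates 1 to 4. TC17 lists 60 wells from TC17D01 on, with -2.27, -1.16, -2.19 and -1.07. The last 6 tiles of TC13 had means from -1.82 to 0.67, the lowest being TC13C08, and the first 6 of TC17 from -2.23 to -0.25. Plates with numbers between these were not analysed here. Plates TC17 to TC30 had a median of -2.24 ± 0.40 over 1098 tiles, yet their SD over tiles, 0.97 ± 0.05, was close to that of TC00 to TC13, 0.97 ± 0.04.

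The replicates agreed best in pairs. Over these 1266 tiles replicates 1 and 3 correlated at 0.968 and replicates 2 and 4 at 0.980, while the remaining 4 pairs ranged from 0.913 to 0.921. The tile-wise difference of replicates 1 and 3 had an SD of 0.25, that of 2 and 4 one of 0.20, and the other differences had SDs of 0.39 to 0.40. The tiles with the largest SD over replicates all split this way: TC03C09 had -3.129, -1.670, -3.504 and -1.672, TC09D09 had 1.30, 0.10, 1.48 and 0.04, and TC04A11 had -0.44, -1.84, -0.56 and -1.69. The difference could go either way. Replicates 1 and 3 were lower at TC03C09 and higher at TC09D09 and TC04A11. Of the 1266 tiles, 32 had an SD over 0.5.

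The titles pair the replicates otherwise, since replicates 1 and 2 share a number in their titles and so do 3 and 4. What this number stands for is not stated. The pairs that share it were compared in limma over all tiles. At an adjusted p under 0.05, 0 of 21285 tiles (0%) differed, and 28 did at an unadjusted p under 0.05, 0 of them on TC00 to TC13. For the members, the fitted value of replicates 1 and 2 less that of 3 and 4 lay between -0.57 and 0.63, around a median of -0.04. Without replicate 3 the count over the array was 1 and without replicate 4 it was 8, each in a fit where an arm has 1 sample. The difference of replicates 1 and 3 from 2 and 4 falls within each arm of this comparison and enlarges its error, so a count of 0 does not show that these pairs were alike.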

How the data were processed

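The deposited values are log ratios of both channels, taken as log2, 1 column per array, per the labels from amplified DNA labelled directly with Cy3 and Cy5. For the scanner, background correction, normalization and the direction of the ratio, the sources used here give nothing. The base was assumed. Of the deposited values under 0.01 in size, 88.3% to 96.3% per replicate were whole multiples of a floating-point step, within 0.05. That step is the one of numbers between 8 and 16. Logs to another base can also lie in that range and no other base was tested, so these shares cannot decide the base. The fold values and factors given above hold only if the base is that of log2. Both arrays of a dye swap were identical, so 1 was used. Replicate medians as deposited were -0.96, -0.33, -0.71 and -0.38.

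Each replicate was centred on the median of the 21285 tiles named by plate and well and filled in all 4 replicates, with no loess or quantile step. Wells were ordered along plate rows, A01 to H12. Replicates 1 and 2, which share a number in their titles, were compared with 3 and 4, which share another, in limma 3.58.1 (R 4.3.3; two-sided, Benjamini-Hochberg over all tiles, threshold 0.05), checked on simulated data. Other steps used Python 3.11.15, numpy 2.4.6, pandas 2.3.3, scipy 1.17.1 and matplotlib 3.10.9. Tiles named singly were the 5 highest and 5 lowest, the extremes of plates and long runs, the largest steps and the largest SDs, and wells beside them. TC03C11, TC03C12 and other wells inside described stretches were named after their values were seen. The plates, tiles and alternatives were chosen with earlier results of these data known. The number of arrays limits precision, and signal over background is unknown.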

Additional observations from a re-analysis of the deposited data

Results flagged for a closer look

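Of 94 reported results with a value in each replicate, 6 had a replicate apart from the other 3 by Dixon's test, which flags about 1 in 20 by chance. The gap is given as a share of the range of the 4 values. It was 0.911 for tile TC08G06, with 0.44 in replicate 1 against 0.91 to 0.96. It was 0.887 for TC06D11, with -1.84 in replicate 4 against -1.74 to -1.73, and 0.872 for TC10G11, with 0.32 in replicate 2 against 0.22 to 0.23. For TC12A10 it was 0.852, with 1.97 in replicate 1 against 2.50 to 2.59. The median of plate TC00 had 0.841, with -0.16 in replicate 1 against -0.06 to -0.04, and the upper quartile of the stretch had 0.881, with 1.18 in replicate 3 against 0.99 to 1.01. The test cannot see a split of 2 replicates against 2.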

How the results depend on the processing

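Quantile normalization, replicates 2, 3 and 4 taken as 1 chromatin, limma calls, skipping blank wells, ending runs at plate borders and pairs across them moved no result for which they were run beyond the spread between replicates, or a count beyond 1.5 times. The other centrings did. As deposited and on the mode, the median level was -0.17 and -0.42, the tiles above were 315 and 273 and those below 553 and 698. High runs had means of 2.06 and 1.90 and longest runs of 12 and 9 wells. Low runs had means of 3.11 and 3.64, and the longest held 27 on the mode. Requiring at least 1 from the median tile gave 206 tiles above and 80 below, mean runs of 1.76 (high) and 1.63 (low), and longest runs of 7 and 6, since fewer tiles pass. With 1 other tile allowed inside a run, the means were 7.15 and 3.21 and the longest high run 43. Down plate columns the neighbour correlation was 0.12, run means were 2.60 and 1.58, and the longest low run 7. With plate medians removed the correlation was 0.515. Without one replicate, the tiles called between replicates 1 and 2 and replicates 3 and 4 ranged from 0 to 8, the tiles above from 724 to 739 and those below from 358 to 387. The longest high run ranged from 25 to 30. Of the plates whose median had 1 sign in all replicates, TC08, TC11 and TC12 changed sign as deposited, to -0.28, -0.22 and -0.076. Centred on the mode, TC06 to TC12 did, at -0.036, -0.037, -0.53, -0.083, -0.079, -0.47 and -0.33. TC01 and TC02, with mixed signs, were at -0.44 and -0.51 as deposited. Tiles TC05D11, TC05G03, TC07F03, TC10F04 and TC10G11 changed sign to -0.077, -0.038, -0.10, -0.11 and -0.35 as deposited and to -0.33, -0.29, -0.35, -0.36 and -0.60 on the mode, where TC08G06, TC09D06 and TC09D09 were at -0.029, -0.17 and -0.11. The alternatives were run for 60 tiles: the highest and lowest, the extremes of plates and long runs, and those of the largest steps and SDs. The others of these with 1 sign in all replicates kept it in every alternative. Further wells given above were not run singly. Those with means above 0 but below the size of the mean shifts, -0.60 as deposited and -0.85 on the mode, fall below 0 there too. No paired analysis was possible because all samples belong to 1 group.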

Other observations

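The blank wells of these plates shared a feature that was seen in the values and not looked for. All 16 lay in plate rows B, D, F or H, 6 of them on TC08, and 7 of the 14 plates had none. Over the whole array 224 of 476 blank wells (47.1%) were in those rows. By set of plates it was 142 of 278 on TA, 55 of 144 on TB and 25 of 51 on TC, the 16 included. The pattern was chosen because it was seen, so it has no test. Blank wells were 1.25% of the named wells here and 2.19% on the array.

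The mean of replicates 1 and 3 less that of 2 and 4 had a median of 0.12 over all members and ranged from -1.65 to 1.32. Over the 11 members below -2, of which 6 are the stretch TC03C07 to TC03C12, the median was -0.23 and the range -1.65 to 0.17. Over the 20 above 2 the median was -0.13 and the range -0.63 to 0.51, so tiles at both ends went either way.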
